A study of Mus musculus with 8 samples.

Results

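No peak of H3K27ac, the acetylation of lysine 27 on histone H3, was called in any of 4 mouse breast tumors at the promoters of 8616 of 20807 autosomal protein-coding genes, which is 41.4% of them. A promoter was taken as the 1 kb on either side of a gene's annotated 5′ end, and it was counted here when no H3K27ac peak of any tumor overlapped that window by even 1 bp. The promoters were thus chosen by the measured peaks in the window, so their emptiness is a description and was not tested. What follows describes the genes they belong to, their DNA sequence, and the acetylation that lay around them. The rule did not use the sequence or the acetylation outside the window. Counts of empty promoters in each tumor, however, come from the same window peaks as the rule.

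All 4 tumors came from Balb/c mice that carried the PyMT oncogene, driven in mammary epithelium by the MMTV promoter, and that lacked Rag1, so that the hosts made no B or T cells of their own. Every mouse received CD4+ T cells by injection at 4 weeks of age. Control tumors (PyMT;Rag1KO, n = 2) had no further transgene, whereas test tumors (K14-TSLPtg;PyMT;Rag1KO, n = 2) also overexpressed the cytokine TSLP from the keratin 14 promoter, which is active in basal epithelia such as the epidermis. The sample titles call the control tissue a tumor and the test tissue a cyst, and the comparison asks how TSLP-activated CD4+ T cells change the chromatin of the tumor. Each group held 2 tumors, so a group's spread rests on 2 values and the exact permutation test over tumors, with 3 possible splits, cannot give a p below 0.333.

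H3K27ac is placed by histone acetyltransferases such as p300 and CBP on nucleosomes beside active promoters and enhancers, and deacetylases take it away. Promoters rich in CpG dinucleotides tend to be open in most cells, and many of those of developmental regulators are held silent by Polycomb complexes outside the tissue that uses them. CpG-poor promoters more often belong to genes used in a single tissue, which stay without active marks elsewhere.

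The 7 sequences that follow are the 200 bases just upstream of the annotated start, 5′ to 3′ on the strand of the gene, in GRCm38/mm10, and none overlaps an annotated exon. They show the kinds of promoter found among the empty windows (an olfactory receptor, the epidermal gene Ivl, the Th2 cytokine Il4, the milk protein Csn2, the luminal regulator Foxa1 and the pluripotency factor Sox2) and, for contrast, a promoter that was acetylated in all 4 tumors, that of the milk protein Csn3. Capitals mark CG dinucleotides and the letters TATAAA.
Olfr1034, chr2:86045661-86045860, plus strand: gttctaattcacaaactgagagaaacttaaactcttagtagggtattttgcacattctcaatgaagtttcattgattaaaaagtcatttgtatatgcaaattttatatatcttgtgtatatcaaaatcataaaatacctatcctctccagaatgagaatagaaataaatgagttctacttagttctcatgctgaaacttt
Ivl, chr3:92573736-92573935, minus strand: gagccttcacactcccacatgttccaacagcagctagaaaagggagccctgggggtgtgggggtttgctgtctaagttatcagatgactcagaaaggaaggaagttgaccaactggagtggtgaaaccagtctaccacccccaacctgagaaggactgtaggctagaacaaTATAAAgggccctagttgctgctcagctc
Il4, chr11:53618670-53618869, minus strand: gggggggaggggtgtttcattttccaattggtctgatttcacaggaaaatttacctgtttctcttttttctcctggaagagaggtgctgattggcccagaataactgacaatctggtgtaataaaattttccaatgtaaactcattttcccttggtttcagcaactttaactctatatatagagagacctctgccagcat
Csn2, chr5:87699631-87699830, minus strand: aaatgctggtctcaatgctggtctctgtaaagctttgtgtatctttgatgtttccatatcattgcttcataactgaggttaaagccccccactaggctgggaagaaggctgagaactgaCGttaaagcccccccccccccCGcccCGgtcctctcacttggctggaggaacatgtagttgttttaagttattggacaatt
Csn3, chr5:87925379-87925578, plus strand: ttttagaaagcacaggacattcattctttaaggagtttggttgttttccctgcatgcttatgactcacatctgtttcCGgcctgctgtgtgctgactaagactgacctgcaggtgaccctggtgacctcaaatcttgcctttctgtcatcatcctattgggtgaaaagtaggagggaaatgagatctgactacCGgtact
Foxa1, chr12:57546917-57547116, minus strand: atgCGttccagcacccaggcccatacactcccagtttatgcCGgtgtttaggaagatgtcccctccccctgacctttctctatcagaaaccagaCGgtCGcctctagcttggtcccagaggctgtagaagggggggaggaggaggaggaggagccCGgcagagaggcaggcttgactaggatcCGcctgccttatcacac
Sox2, chr3:34650205-34650404, plus strand: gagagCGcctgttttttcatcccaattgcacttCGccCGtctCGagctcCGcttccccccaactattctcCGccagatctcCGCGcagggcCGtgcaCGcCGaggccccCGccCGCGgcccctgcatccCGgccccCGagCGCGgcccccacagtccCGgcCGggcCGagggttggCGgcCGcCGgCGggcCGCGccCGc
Olfr1034, Ivl and Il4 had 0 CG in these 200 bases, and Ivl was the only 1 of the 7 with TATAAA, starting 29 bases before the start. Csn2 had 3 CG and the acetylated Csn3 had 2, so this stretch did not separate the empty casein promoter from the acetylated one. Sox2 had 28 CG, the most of the 7, and Foxa1 had 6.

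The peak lists contained 59762 to 69861 peaks per tumor, covering 64.3 to 73.1 Mb. Test 2 had the fewest peaks and the least coverage. The lists hold positions only, so the sequencing depth and the height of the peaks are unknown, and an empty window means that no peak was called there, not that the mark was shown to be missing. Krt8 and Krt18, the keratins of luminal epithelium, had promoter peaks in all tumors. Only 2 of 20 promoters of luminal marker genes lay among the empty windows. These values are the window peaks that the rule used, so they describe the tissue and do not check its label. None of the 14 housekeeping promoters was empty in all 4 tumors.

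Most windows were either empty or acetylated throughout. A peak was present in all 4 tumors at 10584 promoters (50.9%), and 559, 446 and 602 promoters had a peak in 1, 2 and 3 tumors. Control 1 had 9373 empty windows, control 2 had 9286, test 1 had 9248 and test 2 had 9728, which is 45%, 44.6%, 44.4% and 46.8% of promoters. Of the windows that were empty in the other 3 tumors, the tumor left out of the choice was also empty at 98.5% (control 1), 98.3% (control 2), 98.3% (test 1) and 98.5% (test 2). These shares come from the same peaks as the choice of promoters and are given as a description. At the edge of the rule, the peaks nearest to Naa20, Hk3 and Parvg began 1001, 1010 and 1014 bp from the start, just outside the window, while Nphp4, Dsc3 and Pdpk1 were left out for overlaps of 1, 3 and 3 bp in 1 tumor each. In total, 188 of the empty promoters had a peak within 1.5 kb of the start.

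Sensory receptor genes were the largest coherent group. Of 1512 genes for olfactory, vomeronasal, taste, trace amine and light receptors, 1494 had an empty promoter (98.8%, beside 41.4% of all promoters), and they made up 17.3% of all empty promoters. Olfactory receptors, which detect odorants in the nasal epithelium, contributed 1115 of 1128. The exceptions with the most acetylated bases in the window were Olfr56, Olfr159 and Olfr1505, with a mean of 1066, 797 and 574 bp in peaks over the 4 tumors. Olfr1505 had its peaks in only 2 tumors. Among pheromone receptors of the vomeronasal organ, 206 of 208 type 1 and all 121 type 2 promoters were empty, with Vmn1r4 and Vmn1r183 acetylated in all 4 tumors. Bitter taste receptors were empty at 34 of 35 promoters, the exception being Tas2r144, and trace amine receptors at 15 of 15. The opsins, the light receptors, were empty at 3 of 5 promoters (60%), with Opn1sw and Opn3 acetylated in all 4 tumors.

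**Figure D1:**
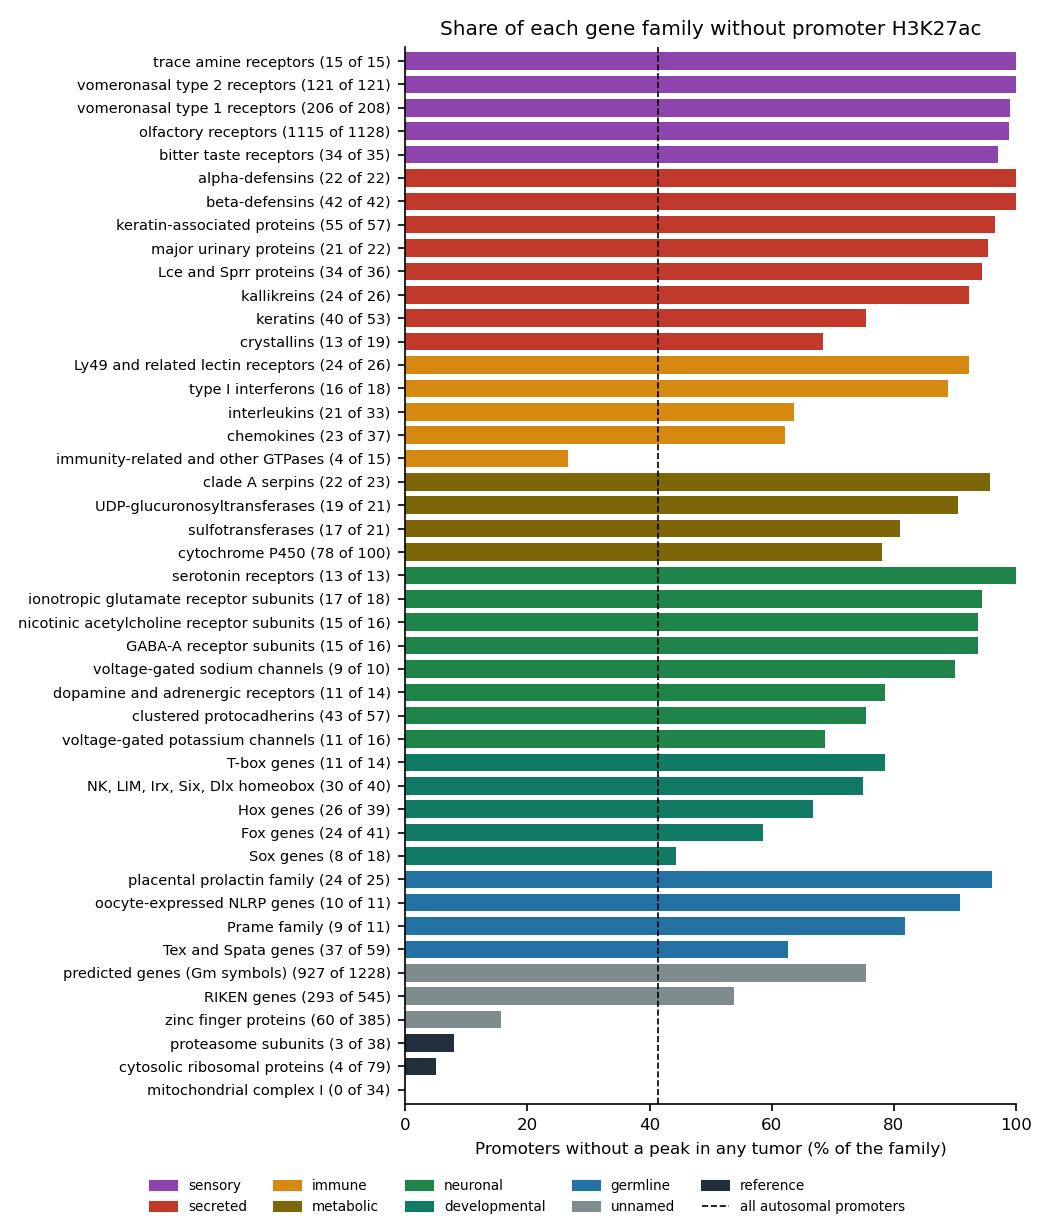
Percentage of promoters (x axis) without an H3K27ac peak in any of the 4 tumors for each gene family with at least 10 autosomal genes (y axis, empty and total promoters in brackets), colored by role, beside all autosomal promoters (dashed line, 41.4%). Every sensory family drawn lies above 90%, as do the secreted families drawn other than keratins and crystallins, with developmental families between 44.4% and 78.6% (Pax genes, with 9 members, and opsins and caseins, with 5 each, are too few to be drawn), and ribosomal, proteasome and complex I genes under 8%.

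Clustered genes for secreted and barrier proteins were nearly as empty. All 42 beta-defensins and all 22 alpha-defensins, antimicrobial peptides of epithelia and of Paneth cells, lacked a promoter peak. So did 21 of 22 major urinary proteins, the pheromone carriers made by liver, 55 of 57 keratin-associated proteins of hair, 34 of 36 late cornified envelope and small proline-rich proteins of the epidermis, and 24 of 26 kallikreins. Of the 4 exceptions in the last 2 families, Sprr2a1, Sprr2a2, Klk10 and Klk8 had a peak in just 1 tumor each. The sequences of the alpha-defensin and major urinary protein promoters are repeated in the genome: a median of 11.7% and 15.3% of their 50-base words occurred once only, so most reads of that length could not be placed uniquely there, and an empty window says little in these 2 families. How the authors treated reads that match several places is not given in the sources used here. By contrast, the beta-defensin windows had a median of 97.4% unique words and the olfactory receptor windows 99.0%.

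Keratins are the intermediate filament proteins of epithelia. Of 53 keratin promoters, 40 were empty, and the 7 acetylated in all 4 tumors were Krt7, Krt8, Krt18, Krt19, Krt23, Krt79 and Krt80. Another 6 were acetylated in some tumors only: Krt17 in 3, Krt5, Krt14 and Krt6a in 2 each, and Krt15 and Krt4 in 1 each. Control 1 and control 2 had 41 and 45 empty keratin promoters and the test tumors 41 and 46, so the 2 groups overlapped.

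The caseins, the main milk proteins, are a gene cluster in which 4 of 5 promoters were empty. The exception, Csn3, encodes kappa-casein and had its whole window of 2001 bp in peaks in all 4 tumors. Acetylation nevertheless lay close to the empty casein promoters. For Csn1s2b the nearest peak was 2.38 and 2.54 kb away in the controls and 2.43 and 10.1 kb away in test 1 and test 2. For Csn1s1 it was 3.05, 48.5, 3.63 and 3.08 kb away, so here control 2 was the tumor that stood apart. For Csn2, beta-casein, the distances were between 25.5 kb (test 1) and 26 kb (control 2), nearly the same in all tumors. In 3 of these 4 genes (Csn1s1, Csn1s2a and Csn1s2b) another annotated start of the same gene carried a peak, for Csn1s2b in control 1 only and for the other 2 in every tumor except control 2. Of 16 milk protein genes in all, 7 had an empty promoter (43.8%, near the 41.4% of all promoters), the other 3 being Glycam1, Olah and Slc34a2, and the count was 7 in each of the 4 tumors.

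Genes of other organs and lineages were empty as a rule, beside 41.4% of all promoters. The promoters of all 13 hepatocyte genes, among them Alb (albumin) and Apob, all 10 pancreas genes, among them Ins1 and Ins2, all 11 cardiomyocyte genes and all 10 adipocyte genes were empty in every tumor. The adipocyte list included Adipoq, Lep and Pparg. The nearest peak to Adipoq, which encodes the fat hormone adiponectin, was 17.5 to 17.7 kb away in the 4 tumors. Lipe, for the hormone-sensitive lipase, had a peak 2.05 to 2.12 kb from its start in all 4 tumors. Another annotated start of Lipe, 2.33 kb away, was acetylated in all 4. The same held for other starts of the cardiomyocyte gene Tnnt2 and the pancreas gene Cela1, while another start of Pparg was acetylated in test 2 only. For Ins1 and Ins2 no peak lay within 100 kb, the nearest being 722 kb and 171 kb away. Of 18 neuronal marker genes 16 were empty, of 17 germ cell genes 13, of 14 skeletal muscle genes 10 and of 10 pluripotency genes 9.

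Genes of B cells, T cells and the Th2 program also had mostly empty promoters, while 5 of 20 myeloid promoters (25%) were empty in all tumors, below the 41.4% of all promoters. The hosts made no B cells of their own, and the part of this in the empty B cell promoters was not tested. For the other cell types of this whole tissue, fewer cells of a type and less acetylation per cell cannot be told apart. All 13 B cell genes were empty in all tumors, among them Cd79a and Ms4a1 (CD20). Of 16 T cell genes 12 were empty (75%), among them the co-receptor Cd4 and the CD3 chains Cd3e, Cd3d and Cd3g. All 8 cytokine genes of the Th2 program were empty. The nearest peak to Il4, the defining Th2 cytokine, was 18.6 and 43.7 kb away in the 2 control tumors and 43.8 kb in both test tumors. Its neighbor Il13 had a peak 2.62 kb away in control 1 only, and 27.7 kb away in the other 3 tumors. The eosinophil growth factor Il5 had one 12.8 to 13.1 kb away in all tumors. For none of the 8 cytokine genes did both test tumors have a peak more than 1 kb nearer than both controls. At Csf2 it was control 1 that stood apart, with 34.4 kb beside 1.64 to 1.78 kb in the other 3 tumors. Tslp itself, the cytokine of the transgene, had an empty promoter with its nearest peak 21.4 to 21.9 kb away in all tumors. The peak lists follow the endogenous gene's start, and the keratin 14 promoter that drives the transgene is not part of that window.

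The 2 empty promoters among 20 luminal genes were those of Foxa1 and Pgr, a pioneer factor for hormone receptors and the progesterone receptor. Neither had a peak within 10 kb. The nearest peak to Foxa1 lay 104.9 and 105.0 kb away in the controls, 315.5 kb away in test 1 and 104.8 kb away in test 2. For Pgr the distances were 67.8, 103.4, 67.9 and 130.2 kb, with no separation of the groups.

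For markers of stroma and of the myoepithelial layer, the number of empty promoters varied from tumor to tumor. Of 17 fibroblast promoters, 10 were empty in each control tumor, 11 in test 1 and 16 in test 2. Of 14 endothelial promoters the counts were 6, 9, 10 and 14, and of 14 myoepithelial promoters 5, 9, 7 and 13. For 20 myeloid promoters they were 6, 7, 9 and 11. Test 2 had the most empty promoters in each of these 4 lists, while in the luminal list the counts were 3, 4, 3 and 3. The promoters empty in all 4 tumors were 7 fibroblast (41.2%), 6 endothelial (42.9%), 4 myoepithelial (28.6%) and 5 myeloid ones (25%), beside 41.4% of all promoters, so the fibroblast and endothelial shares were near that of all genes. The fibroblast ones were Col1a2, Col5a1, Col6a3, Fap, Lum, Sparc and Thy1.

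**Figure D2:**
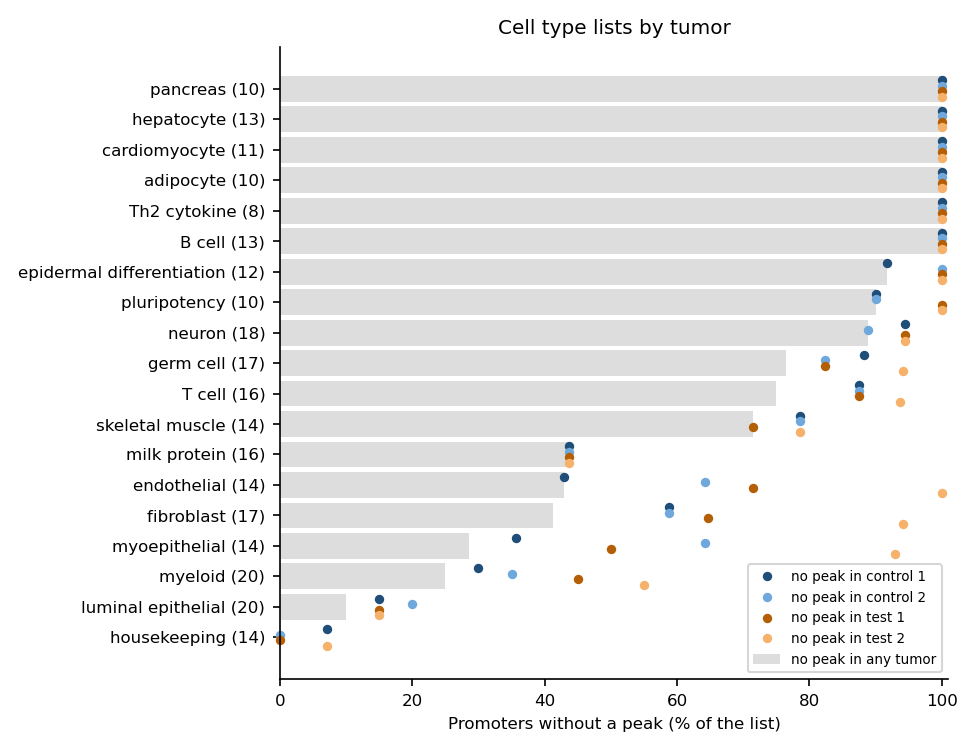
Percentage of promoters without a peak (x axis) in each list of marker genes (y axis, number of genes in brackets), with grey bars for promoters empty in all 4 tumors and points for each tumor. The points of B cell, Th2 cytokine, adipocyte and liver genes coincide at 100%, while test 2 lies to the right of the other tumors for fibroblast, endothelial and myoepithelial genes.

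Neuronal receptors, ion channels and clustered protocadherins, the adhesion molecules of neurons, formed a further group. Of its 160 promoters 134 were empty (83.8%, beside 41.4% of all promoters). The protocadherins made up 57 of the 160, and 43 of them were empty. All 13 serotonin receptors, 15 of 16 GABA-A receptor subunits, 17 of 18 ionotropic glutamate receptor subunits and 15 of 16 nicotinic acetylcholine receptor subunits lacked a promoter peak. The exception among GABA-A subunits was Gabrp, which had peaks in all 4 tumors with a mean of 1109 bp of its window covered. The exceptions among nicotinic and glutamate receptors were Chrnb1, acetylated in all tumors, and Gria4, in 1 tumor.

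Developmental transcription factors were more mixed, with 108 of 161 promoters empty (67.1%, beside 41.4% of all promoters). All 9 Pax genes, 26 of 39 Hox genes, 30 of 40 homeobox genes of the NK, LIM and Iroquois classes and their relatives, 24 of 41 Fox genes and 11 of 14 T-box genes were empty. The Sox genes, with 8 of 18 empty (44.4%), were near the share of all promoters. Those acetylated in all tumors included Irx2, Irx3 and Irx5 of the Iroquois group, Sox4, Sox9 and Sox10 of the Sox group, and Foxo1 and Foxo3 of the Fox group. The Hox genes, which set position along the body axis, differed between tumors: 32, 27, 30 and 38 of the 39 promoters were empty in control 1, control 2, test 1 and test 2.

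Genes that every cell uses provided the opposite pole. All 34 genes of mitochondrial complex I had a promoter peak in every tumor, and only 4 of 79 genes for cytosolic ribosomal proteins and 3 of 38 proteasome subunits were empty. These 7 were for the most part paralogs known for restricted expression. Rpl10l, Rpl39l and Psma8 are used in male germ cells, Rpl3l in striated muscle and Psmb11 in the thymic cortex. In the other 2, Rpl17 and Psmd9, another annotated start of the gene was acetylated, and the nearest peak lay 1.03 kb and 17.7 kb from the gene's 5′ end. The zinc finger genes, with 60 of 385 promoters empty (15.6%), were well below the share of all promoters.

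The empty promoters were poor in CpG. Their median ratio of observed to expected CpG was 0.204, beside 0.631 in promoters with a peak in all 4 tumors and 0.401 in those with a peak in some. A promoter was called high-CpG when any 500-bp stretch of the window had a GC content of at least 55% and a ratio of at least 0.75, and low-CpG when every stretch was below 0.48. By this definition 1457 of the 8616 empty promoters were high-CpG (16.9%), beside 79.0% of the promoters acetylated in all tumors, and 62.3% were low-CpG, beside 6.07%. Read the other way, 14% of the 10430 high-CpG promoters, 46.7% of the intermediate ones and 82.0% of the 6554 low-CpG promoters were empty. The letters TATAAA occurred on the strand of the gene in the 60 bases upstream of the start in 6.6% of empty promoters, 1.27% of those acetylated in all tumors and 3.6% of all promoters. Genes with an empty promoter were also shorter, with a median length of 10.7 kb beside 22.6 kb.

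**Figure D3:**
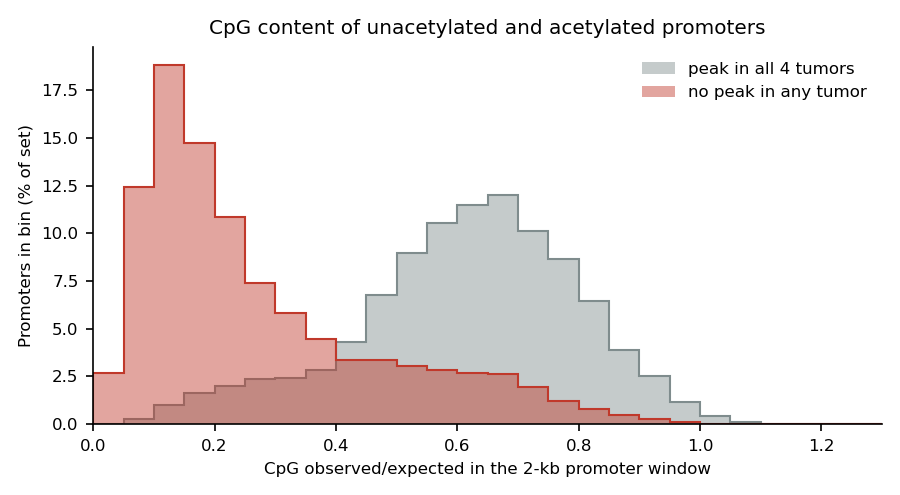
Distribution of the ratio of observed to expected CpG in the promoter window (x axis, bins of 0.05) as the percentage of promoters in each bin (y axis), for promoters without a peak in any tumor (red) and with a peak in all 4 (grey). Empty promoters peak at low ratios around their median of 0.204, with a tail under the acetylated promoters, whose median was 0.631.

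CpG content divided the empty promoters by role. Not 1 of the 1494 sensory receptor promoters was high-CpG, and 96.2% were low-CpG. Secreted proteins had 1 high-CpG promoter among 255. In contrast, 76 of the 108 empty developmental promoters (70.4%) and 54 of the 134 empty neuronal promoters (40.3%), 15 of them protocadherins, were high-CpG, including 20 of 24 Fox, 7 of 8 Sox, 17 of 26 Hox and 6 of 9 Pax promoters. For Sox2 the ratio was 0.817, and for Nefl, the neurofilament light chain, 0.869. These promoters therefore resembled acetylated promoters in sequence but carried no peak in any tumor. Most of the 1457 high-CpG promoters were in none of the gene families examined (1225 empty promoters outside all families were high-CpG, 24.3% of such promoters).

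Most genes with an empty promoter had acetylation somewhere in reach. Counting the peaks of all 4 tumors together, 804 (9.33%) had a peak within 1 kb of another annotated transcript start of the same gene, 1323 (15.4%) had peaks within the gene body but at no other start, 4542 (52.7%) had a peak outside the gene within 100 kb, and 1947 (22.6%) had none of these. Among the first kind, another start was acetylated in each of the 4 tumors for 536 of 804 genes (66.7%), and the nearest such start lay a median of 11.6 kb from the gene's 5′ end. For 635 of the 804 a peak lay at the start of a protein-coding transcript, and for the other 169 peaks lay only at starts of transcripts not annotated as coding. They included Trp63, Mylk and Lama3 of the myoepithelial list and Csf1r and Aif1 of the myeloid list. For Trp63, the p63 factor of basal epithelium, the nearest peak lay 41.5, 41.4, 57.6 and 58.3 kb from the start in control 1, control 2, test 1 and test 2, and another of the gene's starts was acetylated in every tumor except test 2.

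The nearest peak of any tumor was a median of 30.8 kb from the start (quartiles 9.72 and 95.7 kb). It lay within 10 kb for 2191 genes (25.4%) and beyond 100 kb for 2061 (23.9%). The nearest acetylated region was at the promoter of another gene in 25% of cases, and in 39.8% it was present in all 4 tumors. Over all 91238 acetylated regions, 14.4% were at a promoter and 38.1% were present in all 4 tumors. Sensory receptor genes were a median of 133 kb from the nearest peak and secreted protein genes 47.3 kb. Developmental genes, at 29.3 kb, and neuronal genes, at 28.7 kb, were near the median of all empty promoters. Neuronal families differed among themselves, from 13.3 kb (dopamine and adrenergic receptors) and 15.6 kb (clustered protocadherins) to 118 kb (GABA-A receptor subunits). Of the sensory genes, 896 of 1494 had no peak within 100 kb. High-CpG empty promoters lay a median of 31.5 kb from a peak, intermediate ones 20.1 kb and low-CpG ones 37.2 kb, and 11.9%, 11.5% and 29.2% had no acetylation in reach.

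The shares of these classes were close between tumors. Peaks in the gene body only were found for 12.1%, 12.5%, 11.4% and 11.3% in control 1, control 2, test 1 and test 2. In this class both controls were higher, while the groups overlapped in the other classes. An empty gene had an acetylated other start in 7.68%, 7.85%, 7.81% and 7.29% of cases, and no acetylation in reach in 28.0%, 29.2%, 30.5% and 29%, in the same order of control 1, control 2, test 1 and test 2. The median distance to the nearest peak was 41.5, 41.6, 43.7 and 44.4 kb. It was longer in both test tumors, by 2.47 kb (41.58 ± 0.08 kb in control and 44.05 ± 0.45 kb in test tumors, SD, n = 2 each), which gave p = 0.333 in the two-sided exact permutation test, the smallest value these 4 tumors allow. The direction turned when only peaks at least 1 kb wide were used (test tumors nearer, -4.05 kb), and when equal numbers of peaks were kept the difference was 0.552 kb.

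**Figure D4:**
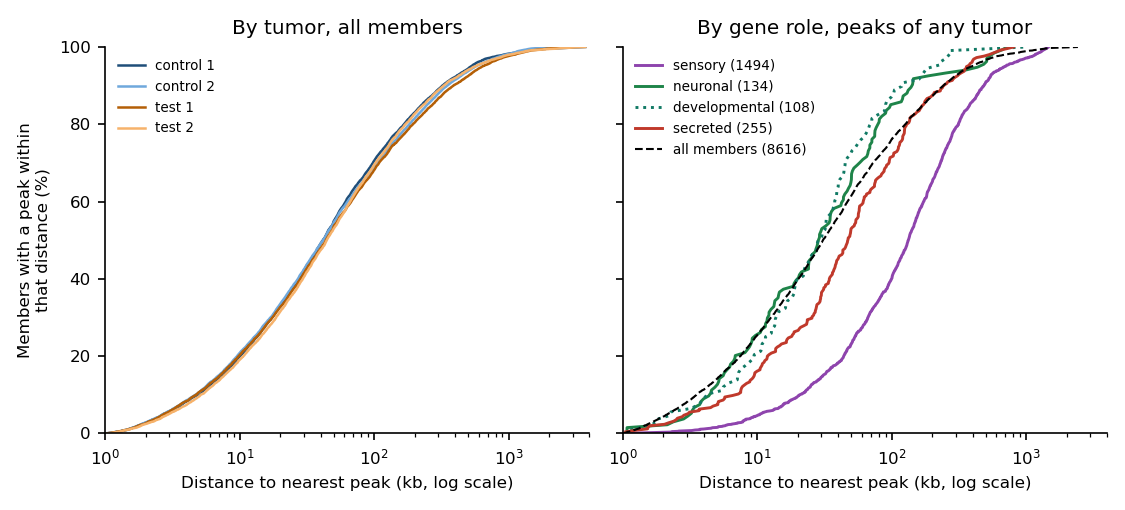
Cumulative percentage of genes with an empty promoter (y axis) that had a peak within a given distance of the start (x axis, kb, log scale), on the left for all 8616 in each tumor and on the right by role, counting the peaks of any tumor. The 4 tumors nearly coincide, whereas sensory receptor genes lie to the right of all others, with a median of 133 kb.

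The mean number of peaks within 100 kb of an empty promoter was 5.8, 5.87, 5.6 and 5.02, beside 13.4, 13.8, 13.3 and 11.6 around all other promoters. Test 2 was lowest for both sets. The test tumors had 0.91 times as many peaks near empty promoters as the controls, 0.916 times near the other promoters and 0.912 times over all peaks, so the number of peaks near empty promoters moved with the total number called.

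Part of the genes with an empty promoter lay in long uninterrupted runs along the chromosomes. Of 3407 runs of neighboring genes, 1978 were a single gene and the median run was 1 gene, while the 102 runs of at least 10 genes held 2575 genes (29.9%). The longest ran over 200 genes and 4.35 Mb on chromosome 2 (chr2:86045861-90398683), from Olfr1034 to Olfr1274-ps, and each tumor had 1 peak in that whole stretch. The next were the vomeronasal run from Vmn1r91 to V1rd19 on chromosome 7 (102 genes, 3.9 Mb, 2 to 4 peaks per tumor), the run from Itga7 to Vmn2r87 on chromosome 10 (69 genes), the run from Gm2888 to Gm8206 on chromosome 14 (65 genes) and the defensin run from Defb40 to Ccdc70 on chromosome 8 (64 genes). In the defensin run the tumors had 17, 17, 10 and 12 peaks. Per chromosome, the share of empty promoters ranged from 33.1% on chromosome 12 to 52.4% on chromosomes 7 and 14. Without sensory receptors and predicted genes with Gm symbols it ranged from 29.1% on chromosome 11 to 39.7% on chromosome 6.

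The gene farthest from any peak was Gm2888, with a distance of 2430 kb, followed by Gm2897, Gm10340, Lrfn5 and Gm5795. Over all 927 predicted genes with Gm symbols and an empty promoter, a median of 67.3% of the words in the window were unique, so their windows are harder to read than most. Lrfn5, which encodes a synaptic adhesion molecule, is different: it has a high-CpG promoter on chromosome 12, and its nearest peak was 2303 kb away in each of the 4 tumors.

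At the other extreme, some empty promoters stood amid dense acetylation. The 5 genes with the most acetylated bases 1 to 50 kb from the start, among those with at least 80% unique words in the window, were Zmynd8, Cend1, Dand5, 6030468B19Rik and Cysrt1, which had 26 to 49 acetylated regions within 100 kb. Zmynd8, a reader of acetylated chromatin, had another acetylated start. Dand5, an antagonist of the signaling factor Nodal, had its nearest peak 8.76 to 8.88 kb away in all 4 tumors.

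Test and control tumors were compared in the flanks, the stretch from 1 to 10 kb on either side of the start, which the choice of promoters did not use. Flank coverage is the percentage of these bases that lay in peaks. Of the 8616 genes with an empty promoter, 2191 had a peak in the flank in at least 1 tumor. Both control tumors exceeded both test tumors at 272 of these genes (12.4%) and both test tumors exceeded both controls at 351 (16.0%), whereas over all 12485 genes with flank coverage the shares were 12.8% and 17.0%. The flanks of empty promoters thus separated the groups about as often as the flanks of any gene. Mean coverage was 1.69%, 1.67%, 1.79% and 1.59% in control 1, control 2, test 1 and test 2, and the 2 groups overlapped.

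A flank peak was present in both control tumors and neither test tumor at 57 genes (2.6%, beside 1.58% of all genes with flank coverage), and in both test tumors and neither control at 40 (1.83%, beside 1.18%). The first kind included Col1a2 and Col6a3, which encode collagen chains of fibroblasts, and Ccr2, the receptor that guides monocytes. It also included the T cell gene Cd2, the adipokine gene Retn, and Apoa1, Cpa1 and Dppa3 of the hepatocyte, pancreas and pluripotency lists. Col1a2 and Ccr2 had another annotated start 0.679 and 3.68 kb from the 5′ end. Each had a peak within 1 kb of that start in both controls and neither test tumor, so these flanks take in acetylation near another start. Of the 5 T cell genes with flank coverage, 1 was higher in both controls and 1 in both test tumors. Of the 5 adipocyte genes, Retn alone was higher in both controls and 0 in both test tumors, while the median of the 5 differences (test minus control) was 0.458 percentage points. Col1a2 had 3.85% and 2.59% of its flank in peaks in control 1 and control 2, and Col6a3 had 1.42% and 5.83%. Both were at 0 in the test tumors. The second kind included Slc34a2, a phosphate transporter of the lactating gland, with 0.422% and 1.04% in test 1 and test 2. Other genes of this kind, picked here after their values were seen, were Sult1e1, the estrogen sulfotransferase, with 1.47% and 5.23%, and the mast cell tryptase gene Tpsb2, with 1.0% and 0.9%.

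The 5 genes with the largest excess in control tumors were E130218I03Rik, Sparc, Tnnt2, Synpo and Tppp3. Sparc, a matrix protein of fibroblasts, had 36.4% and 35.2% of its flank in peaks in control 1 and control 2 and 20.1% and 7.83% in test 1 and test 2. Its groups did not overlap, and test 2 had the lowest value. Its flank includes another annotated start of Sparc, 2.86 kb away and with a peak within 1 kb of it, and the same holds for Tnnt2 (4.34 kb), Tppp3 (2.12 kb), Homer1 (4.12 kb) and Rhbdf2 (2.77 kb), while for E130218I03Rik such a start lay 0.101 kb from the 5′ end, so these values take in acetylation near the gene's other starts. Tnnt2, troponin T of the heart, had 47.5% in control 1 but 15.9% in control 2, beside 11.7% and 14.5% in the test tumors, so its difference came from control 1. Synpo, an actin-binding protein, had 38.6% and 29.7% against 29.5% and 4.48%, where control 2 and test 1 were nearly equal. All 3 fibroblast genes of the set with flank coverage (Sparc, Col1a2 and Col6a3) were higher in both controls, beside 12.8% of all genes with flank coverage, and the mean flank coverage of the 7 fibroblast genes was 5.96%, 6.23%, 2.88% and 1.12%. The number of fibroblast marker promoters without a peak was 10, 10, 11 and 16 of 17. These counts come from the window peaks that chose the set and are no separate support. Their part in the flank differences was not tested.

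The 5 genes with the largest excess in test tumors were Homer1, Slc6a19, Rhbdf2, Odam and Calhm4. Homer1, a scaffold protein known from synapses, had 17.7% and 10.5% in the controls and 31.5% and 37.1% in the test tumors. Odam, a secreted protein of the gene cluster that also holds the caseins, had 31.5% and 26.7% against 36.7% and 48.8%. Rhbdf2, the iRhom2 regulator of growth factor shedding, had 38.7% and 41.9% against 46.3% and 64.6%. Slc6a19, an amino acid transporter, had 9.34% and 4.76% against 17.9% and 29%. In 4 of these 5 genes test 2 was much higher than test 1, and in Homer1 the test tumors were closer together. Calhm4 was at 0% and 2.54% in the controls and at 4.81% and 24.7% in the test tumors.

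**Figure D5:**
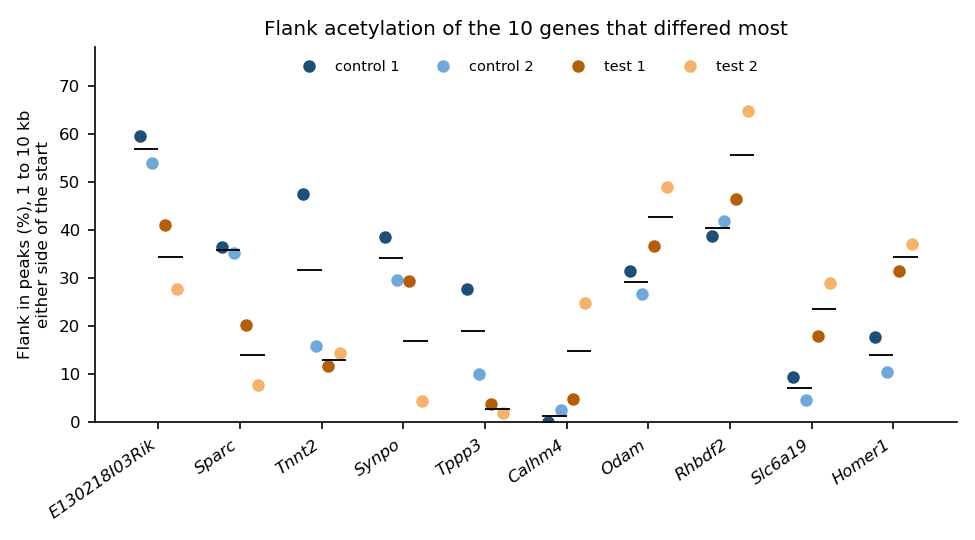
Percentage of the flank in peaks (y axis, 1 to 10 kb on either side of the start) in each tumor (points) for the 10 genes (x axis) with the largest differences whose groups do not overlap, with horizontal bars for the mean of the 2 tumors of a group. Control tumors lie above test tumors for the 5 genes on the left, such as Sparc, and below them for the 5 on the right, such as Homer1.

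Milk protein genes with an empty promoter had more flank acetylation in 3 tumors than in control 2. Over the 7 genes, control 2 averaged 0.495%, while control 1, test 1 and test 2 averaged 3.73%, 3.75% and 3.7%. Olah, a thioesterase that shortens the fatty acids of milk, had 6.51% and 0.878% in the controls against 15.1% and 10.0% in the test tumors, and its groups did not overlap. Csn1s2a had 8.92%, 1.41%, 4.06% and 9.09%, and its groups overlapped. Of the 5 milk protein genes with flank coverage, 2 (Olah and Slc34a2) were higher in both test tumors and 0 in both controls, beside 17.0% and 12.8% of all genes with flank coverage, and so few genes allow no reading of the group.

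Acetylated regions away from promoters were assigned to the gene with the nearest start. Of 60183 such regions, 11547 were nearest to an empty promoter. Peaks of both control tumors and neither test tumor made up 470 of these (4.07%, beside 3.69% of all such regions), and peaks of both test tumors and neither control 194 (1.68%, beside 1.6%). Control-specific regions outnumbered test-specific ones near empty promoters and over all regions alike, and the median width of regions near empty promoters was 464 bp, beside 484 bp near the others.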

How the data were processed

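H3K27ac ChIP-seq was analysed in 4 breast tumors, 2 control and 2 test, from 8 samples. The 4 matched inputs were not used here. Per the study's methods, the authors aligned reads to mm10 with BWA and called peaks in each tumor against its matched input with MACS2 at a q-value limit of 0.01. The deposited peak lists give chromosome, start and end only, with no counts, signal or other score, and the replicates were not pooled, so depth is unknown and no count test was possible. Version numbers are not given in the sources used here. Groups came from the genotype labels, and replicate numbers follow accession order and only name tumors.

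Windows, gene bodies and transcript starts were taken from GENCODE release 21 for mouse (GRCm38). All autosomal protein-coding genes entered, with the 5′ end of the gene as its start. Overlap of 1 bp counted. Sequence features were computed from the GRCm38 chromosomes, whose lengths the peaks fit. A 50-base word, sampled every 20 bp, was unique when it occurred once in either strand of the genome. Peaks cannot be called reliably where few words are unique. Distal regions were the union of the 4 peak lists outside all windows. Python 3.11.15, numpy 2.4.6, pandas 2.3.3, scipy 1.17.1 and numba 0.67.0 were used, and the interval functions and group calls were tested on simulated data.

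The promoters, families and marker lists were chosen with earlier results of these data known. Genes named in the text are those of the lists, the 5 with most acetylation 1 to 50 kb away (at least 80% unique words), the 5 largest flank differences in each direction among genes whose groups do not overlap, the ends of the 5 longest runs, the 5 genes farthest from a peak, 3 on each side of the window's edge and up to 3 per family, those with a promoter peak first and by covered bases. Others named in a count of 7 or fewer, or picked after seeing their values, were outside this rule. Tests between groups were two-sided exact permutation tests over tumors. The alternatives tried were other windows, overlaps, peak widths, equal numbers of peaks, all protein-coding transcript starts, the sex chromosomes, other flanks and CpG definitions, and leaving out each tumor. Some genes and sequences are not reported here.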

Additional observations from a re-analysis of the deposited data

How the results depend on the processing

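No paired analysis was possible because the labels give no number that links a control to a test tumor. The number of empty promoters (8616) was between 7981 and 11389 under the 8 alternatives, the lowest when the starts of all protein-coding transcripts had to be empty and the highest with peaks at least 1 kb wide, and between 8745 and 8769 with a tumor left out. The share of empty windows that were also empty in the tumor left out was 98.4% on average and 98.1% with peaks at least 1 kb wide, which exceeded the spread between tumors. The difference in median distance was reversed with peaks at least 1 kb wide (-4.05 kb), was 0.552 kb with equal numbers of peaks, and ranged from 2.15 to 2.79 kb without a tumor, for the same 8616 genes. The flank counts moved with the flank and the peak width: with a 50-kb flank, 705 genes were higher in both controls and 811 in both test tumors, and with peaks at least 1 kb wide 115 and 177. Without a tumor, where groups separate more easily, they ranged from 428 to 715 and from 553 to 912. The high-CpG share of 16.9% became 24.9% with a GC content of at least 50% and a ratio of at least 0.6 (beside 89.4% of promoters acetylated in all tumors) and 19.2% among windows with at least 80% unique words. Counted to 50 kb instead of 100 kb, 40.0% of genes had a peak outside the gene and 35.3% had none in reach. Of 576 family counts under these alternatives, 571 stayed within 1.5 times the reported count. Most families were already mostly empty and had little room to rise that far, so this share says little about stability. Only 10 of 20 values for the classes of nearest acetylation stayed within the spread between tumors. Of 70 flank differences recomputed for named genes, 0 changed sign and 7 moved by more than the spread between tumors. These genes were picked for groups that do not overlap, so leaving out a tumor could not change the sign. The lack of changes in sign is therefore partly fixed by the choice of genes. With 2 tumors per group and peak positions only, small differences between groups were not detectable.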

Other observations

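Cytochrome P450 and other genes of liver metabolism, which the comparisons above leave aside, had 136 of 165 promoters empty (82.4%): 78 of 100 cytochrome P450 genes, 19 of 21 UDP-glucuronosyltransferases, 17 of 21 sulfotransferases and 22 of 23 clade A serpins. Among the cytochrome P450 genes acetylated in all 4 tumors were Cyp51, a step of cholesterol synthesis, and Cyp24a1, which degrades vitamin D. In the placental prolactin family 24 of 25 promoters were empty, and Prl6a1 had a peak in 3 tumors. Of 33 interleukin genes 21 were empty (63.6%) and of 37 chemokine genes 23 (62.2%), beside 41.4% of all promoters. Ccl9, Cx3cl1 and Ccl25 had the most acetylated chemokine promoters, with a mean of 2001, 1976 and 1846 bp of the window in peaks. The control tumors had 24 and 27 empty chemokine promoters and the test tumors 27 and 30, and for interleukins the counts were 22 and 22 beside 24 and 26. Over all promoters the empty share was 45%, 44.6%, 44.4% and 46.8% in control 1, control 2, test 1 and test 2. These counts come from the peaks that define the set and were not tested.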
